A study of Mus musculus with 13 samples.

Results

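The comparison concerns the response of the mouse brain to 7 days of moderate hypoxia in animals that keep Pdcd10, the gene also called Ccm3. It takes 6 of the 13 libraries of the series, 3 flox hypoxia against 3 flox normoxia, chosen by their sample titles and not by any measured value. All 6 came from brain tissue of Pdcd10fl/fl mice, in which loxP sites flank both copies of Pdcd10 and the genotype label names no Cre recombinase, so the gene is intact. Normoxia was 21% oxygen and hypoxia was 12% oxygen for 7 days. The remaining libraries, used below only for comparison, came from Slco1c1-iCreERT2; Pdcd10fl/fl mice (knockout, KO; 3 in normoxia and 4 in hypoxia), given 50 µg of 4-hydroxytamoxifen on postnatal day 1. Their Cre is driven by the Slco1c1 promoter and removes Pdcd10 from brain endothelial cells. Both genotypes carry the floxed allele. The series' text names a second kind of littermate control, Cre carriers that were not injected, and the labels do not mark any flox library as such. Whether the flox mice were injected, their age at harvest, the hour of harvest and the part of the brain taken are not stated in the labels.

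Cells sense oxygen through prolyl hydroxylases, which mark the alpha subunits of the hypoxia-inducible factors (HIF) for destruction by the von Hippel-Lindau ligase while oxygen is plentiful. In hypoxia HIF accumulates and switches on genes for glucose uptake, glycolysis, red cell production and vessel growth, among them Vegfa. In the rodent brain, sustained mild hypoxia is known for sprouting and enlargement of capillaries over days to weeks. VEGF-A from neurons and glia acts on receptors of endothelial cells, Kdr (VEGFR2) above all.

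Each library held between 42090437 and 67563589 counts, and 22507 of 55416 gene identifiers had enough counts to be tested. Levels are given in CPM, counts scaled to a common library size by the TMM method. Differences are log2 fold changes of hypoxia against normoxia from edgeR's quasi-likelihood test, with their standard error (SE) and Benjamini-Hochberg adjusted p over all genes tested. The tissue label was matched by Camk2a of excitatory neurons (3519 CPM in flox normoxia 1) and Slc1a2, the astrocyte glutamate transporter (3513 CPM in that library). Flox normoxia 3 differed from the other normoxia libraries in 2 respects given here, and in a stretch of genes described below. Every library is labelled male, yet flox normoxia 3 held Xist and no Y-linked counts, whereas the other 5 flox libraries held Y-linked counts. The summed level of 37 immediate early genes was 4159 CPM in flox normoxia 3, against 1952 and 1732 CPM in the other normoxia libraries and 3619 to 3863 CPM in hypoxia. Where leaving it out changed a call of a gene described below, the value without it is also given. As flox normoxia 3 was singled out partly for those levels, such values describe the other 5 flox libraries and support nothing further.

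Of the 22507 genes, 5 passed an adjusted p of 0.05 (0.0222%), all higher in hypoxia. They were Kdr, Cxcl12, Btg2, Vil1 and Gh, of which Gh had enough counts to be tested only through the flox hypoxia libraries. At an unadjusted p under 0.05, 832 genes were higher (3.7%) and 665 lower (2.95%). In 1477 genes (6.56%) every hypoxia library lay above every normoxia library, and in 1347 genes (5.98%) below. The calls depended on single libraries: edgeR called 0 genes without flox normoxia 1, flox normoxia 2 or flox hypoxia 1 (1439, 1480 and 1325 genes at an unadjusted p under 0.05). Without flox hypoxia 2 it called C1ql2 alone, and without flox hypoxia 3 it called 4 genes, among them Gpr6 and Ppp1r1b and none of the 5. DESeq2 called 67 genes on all libraries, and these included all 5. limma on either RPKM scale called 2 genes, Gh and Mir8116, so it kept 1 of the 5. The replicate block kept 3 of the 5, and fits to the 6 libraries compared or to those with Y-linked transcripts kept 4. Without flox normoxia 3, edgeR called 45 genes (0.196% of those tested), 39 higher and 6 lower, and these too included the 5.

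The promoters of 4 of the 5 called genes are in RefSeq's promoter table (GRCm38.p6) and are shown as the 250 bases before the start. Bnip3, a HIF target in the mitochondrial outer membrane that was not called, is shown beside them because its promoter carries the HIF core motif several times. Capitals mark the HIF core (ACGTG or GCGTG, seen as CACGT or CACGC when it lies on the other strand), the cyclic AMP response element TGACGTCA, and the CArG box bound by serum response factor.
Kdr, chr5:75978456-75978705, minus strand: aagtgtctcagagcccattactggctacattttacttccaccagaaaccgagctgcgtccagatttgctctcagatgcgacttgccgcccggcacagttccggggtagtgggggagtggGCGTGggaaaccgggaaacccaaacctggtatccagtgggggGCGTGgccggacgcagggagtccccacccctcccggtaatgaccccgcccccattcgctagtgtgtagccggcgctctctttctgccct
Cxcl12, chr6:117168285-117168534, plus strand: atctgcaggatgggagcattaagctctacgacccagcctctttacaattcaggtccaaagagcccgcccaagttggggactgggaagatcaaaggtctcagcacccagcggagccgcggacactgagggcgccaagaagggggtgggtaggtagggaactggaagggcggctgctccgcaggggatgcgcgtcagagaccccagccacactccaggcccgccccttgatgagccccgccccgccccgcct
Btg2, chr1:134079156-134079405, minus strand: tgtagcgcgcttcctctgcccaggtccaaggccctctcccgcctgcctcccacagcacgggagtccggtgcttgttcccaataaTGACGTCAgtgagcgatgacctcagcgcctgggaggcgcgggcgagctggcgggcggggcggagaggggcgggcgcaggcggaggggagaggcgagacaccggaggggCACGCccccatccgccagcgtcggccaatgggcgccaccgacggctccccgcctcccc
Vil1, chr1:74409134-74409383, plus strand: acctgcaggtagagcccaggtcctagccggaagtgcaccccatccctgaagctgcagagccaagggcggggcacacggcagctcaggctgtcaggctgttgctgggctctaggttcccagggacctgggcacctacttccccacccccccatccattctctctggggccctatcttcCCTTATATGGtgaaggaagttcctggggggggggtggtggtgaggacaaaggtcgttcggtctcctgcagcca
Bnip3, chr7:138909507-138909756, minus strand: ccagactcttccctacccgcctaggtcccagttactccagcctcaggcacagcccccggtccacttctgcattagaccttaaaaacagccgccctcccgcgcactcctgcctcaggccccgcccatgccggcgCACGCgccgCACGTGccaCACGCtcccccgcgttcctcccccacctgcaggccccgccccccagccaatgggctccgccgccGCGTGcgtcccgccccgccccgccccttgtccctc
On both strands, the Kdr window held GCGTG 2 times and the Btg2 window held it 1 time. Btg2 also held TGACGTCA, a motif found in 1.55% of the 32851 promoters of that table when searched over the same 250 bases. Among 13753 genes tested that have an entry, 2.71% held it before at least 1 start. Vil1 held a CArG box, which 1.47% of promoters hold. Cxcl12 held none of these motifs. The window of Bnip3 held ACGTG on both strands of a single CACGTG, and GCGTG 3 times. Windows of Vegfa and Flt1 are not shown. Vegfa held neither HIF core before 1 start, and ACGTG and GCGTG 1 time each before another. Flt1 held GCGTG and TGACGTCA 1 time each. Either HIF core was present in 38.6% of all promoters, so a match by itself is common. Among genes tested that have an entry, 56.36% of 13753 had a HIF core before at least 1 start, against 17 of 19 in the list of HIF-regulated glycolysis genes and 15 of 16 in the list of other HIF targets. The share was about as high in lists not chosen as HIF targets, with 13 of 15 circadian genes and 25 of 31 immediate early genes, and lower in endothelial markers (4 of 11). These are matches of letters and not measured binding.

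Kdr, the main receptor for VEGF-A on endothelial cells, stood at 9.62, 9.37 and 12.2 CPM in the normoxia libraries and at 18.4, 17.7 and 19.8 CPM in hypoxia. The groups did not overlap, and the log2 fold change was 0.84 ± 0.13 (SE, n = 3 each; edgeR adjusted p = 0.031). Its ligand Vegfa stood at 60.6, 65.5 and 75.5 CPM in normoxia and at 109, 90.4 and 105 CPM in hypoxia. The groups did not overlap here either, but at 0.59 ± 0.10 Vegfa did not pass (edgeR adjusted p = 0.111). Without flox normoxia 3, its highest normoxia library, Vegfa was called, at 0.69. Flt1, a receptor that binds VEGF-A tightly and signals weakly, had 41.8, 45.3 and 45.4 CPM in normoxia and 71.8, 64.1 and 66.4 CPM in hypoxia. Its difference of 0.61 ± 0.11 was close to that of Vegfa and likewise missed the threshold (edgeR adjusted p = 0.122). Flt4, the VEGF-C receptor, differed by 0.60 ± 0.19 and was not called. Vegfb, a ligand of Flt1, differed by 0.00 ± 0.07. Of the 10 VEGF ligands and receptors tested, 4 were higher at an unadjusted p under 0.05 (40%, against 3.7% of all genes) and none lower.

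**Figure D1:**
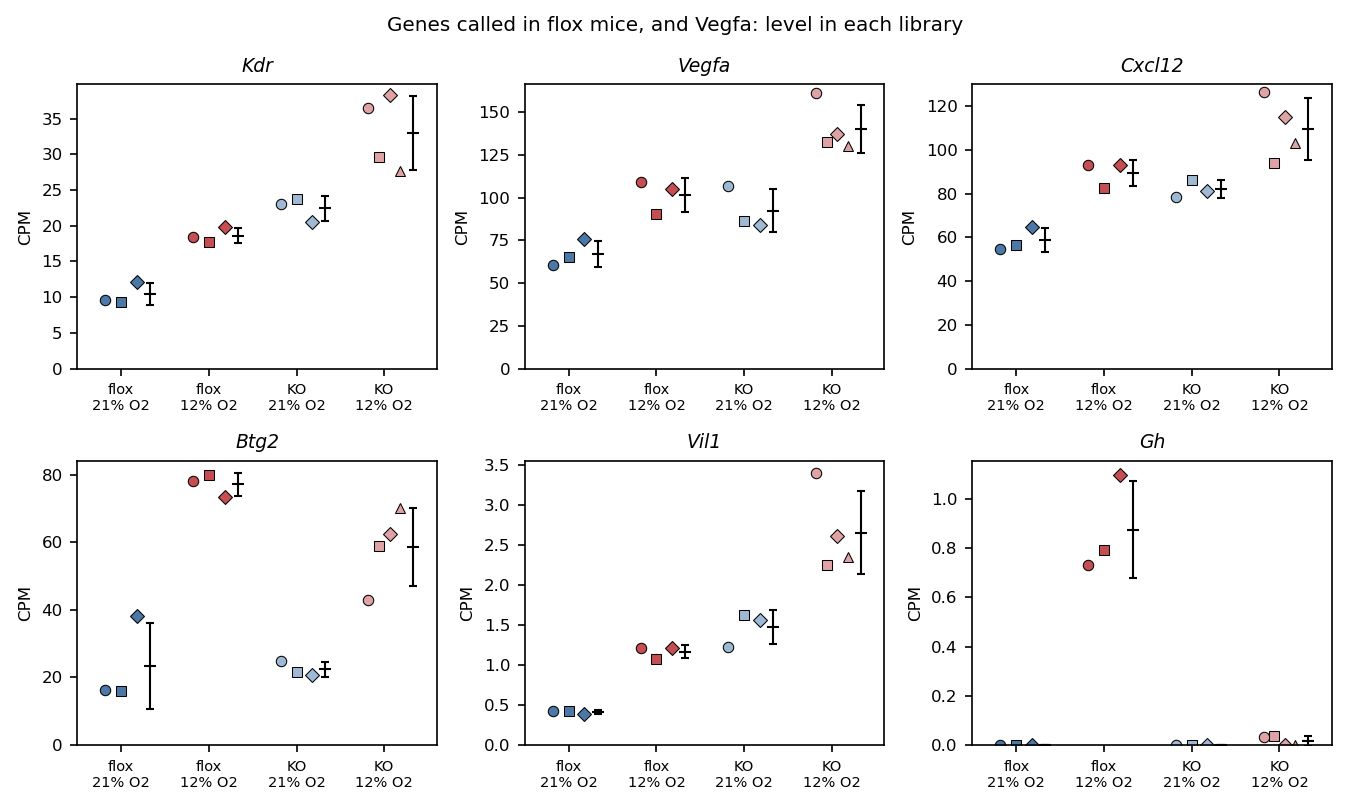
Level of the 5 genes called in flox mice, and of Vegfa, in each of the 13 libraries (CPM, linear axes from 0). Each point is a library, with circle, square, diamond and triangle for replicates 1 to 4, and bars show the mean and SD of the group. In all 6 panels the 3 flox libraries at 12% oxygen lie above the 3 at 21%, with Kdr at 17.7 to 19.8 against 9.37 to 12.2 CPM.

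Cxcl12, the chemokine that guides vessel and progenitor cells through Cxcr4, was the next vascular gene called. It had 54.9, 56.5 and 64.9 CPM in normoxia and 93.0, 82.5 and 93.0 CPM in hypoxia, without overlap (0.61 ± 0.09, edgeR adjusted p = 0.031). Its receptor Cxcr4, at 1.72 to 2.46 CPM in normoxia and 2.06 to 2.37 CPM in hypoxia, was not called. Vil1, which encodes the actin-bundling protein villin, had 0.431, 0.425 and 0.389 CPM in normoxia and 1.22, 1.07 and 1.22 CPM in hypoxia. This is a low level, but the normoxia libraries lay close together and the groups did not overlap (1.49 ± 0.22, edgeR adjusted p = 0.031).

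Angpt2, the angiopoietin that loosens vessels for sprouting, had 1.17, 1.08 and 1.69 CPM in normoxia and 3.53, 2.49 and 2.89 CPM in hypoxia. Despite a log2 fold change of 1.17 ± 0.22 and no overlap, it was not called with all libraries (edgeR adjusted p = 0.122), while it was without flox normoxia 3. The angiopoietin receptor Tek and its partner Tie1 differed by 0.40 ± 0.12 and 0.41 ± 0.16, neither of them called. Of the 6 angiopoietin and Tie genes, 3 were higher at an unadjusted p under 0.05 (50%, against 3.7% of all genes). Apln, a peptide released by sprouting tip cells, and its receptor Aplnr differed by 0.49 ± 0.15 and 1.46 ± 0.37. The groups overlapped for Apln. Aplnr was scarce, at 0.301 to 0.599 CPM in normoxia and 0.622 to 1.65 CPM in hypoxia. The 20 tip cell genes had a median log2 fold change of 0.15. At an unadjusted p under 0.05, 5 were higher (25%, against 3.7% of all genes) and 1 lower (5%, against 2.95%). The lower 1 was Esm1 (-0.985), and 14 of the 20 were above 0. The list median was 0.067 without flox normoxia 1 and 0.081 without flox hypoxia 3.

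Markers of endothelial cells were higher almost throughout, though edgeR called none of the 20 singly. DESeq2 on all libraries called 3 of them, all higher. At an unadjusted p under 0.05, 14 of 20 were higher (70%, against 3.7% of all genes tested) and none lower. In 16 of 20 every hypoxia library lay above every normoxia library (80%, against 6.56% of all genes). The median log2 fold change of the list was 0.42, against 0.00 for all genes, and it was 0.42 without flox normoxia 3 as well. Their summed level was 227, 256 and 243 CPM in the normoxia libraries and 328, 298 and 331 CPM in hypoxia. Pecam1, a junction protein that identifies endothelium, differed by 0.51 ± 0.15, the tight junction protein Cldn5 by 0.39 ± 0.14 and the TGF-beta co-receptor Eng by 0.47 ± 0.12. In bulk tissue, more endothelial cells and more RNA per endothelial cell cannot be told apart.

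Other vessel lists differed less. Of 20 blood-brain barrier genes, 8 were higher at an unadjusted p under 0.05 (40%, against 3.7% of all genes) and none lower, with a median of 0.22. Abcb1a, the efflux pump P-glycoprotein, had 22.04, 20.6 and 19.4 CPM in normoxia and 26.9, 29.3 and 27.0 CPM in hypoxia (0.43 ± 0.10). The groups did not overlap for Abcb1a, nor for Bsg, the escort protein of lactate transporters, at 0.25 ± 0.07. Of 12 pericyte markers, 6 were higher at that level (50%), with a median of 0.25. Rgs5, a regulator of G protein signalling in pericytes, had 79.99, 83.8 and 101 CPM in normoxia and 130, 118 and 123 CPM in hypoxia (0.49 ± 0.09, edgeR adjusted p = 0.132), and it was called at 0.60 without flox normoxia 3. Abcc9, a subunit of the pericyte potassium channel, differed by 0.75 ± 0.15. None of 9 contractile genes of smooth muscle reached an unadjusted p under 0.05, and their median was -0.02. Of 29 matrix genes 6 did (20.7%), all higher, among them Col4a1 of the basement membrane (0.42 ± 0.14).

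**Figure D2:**
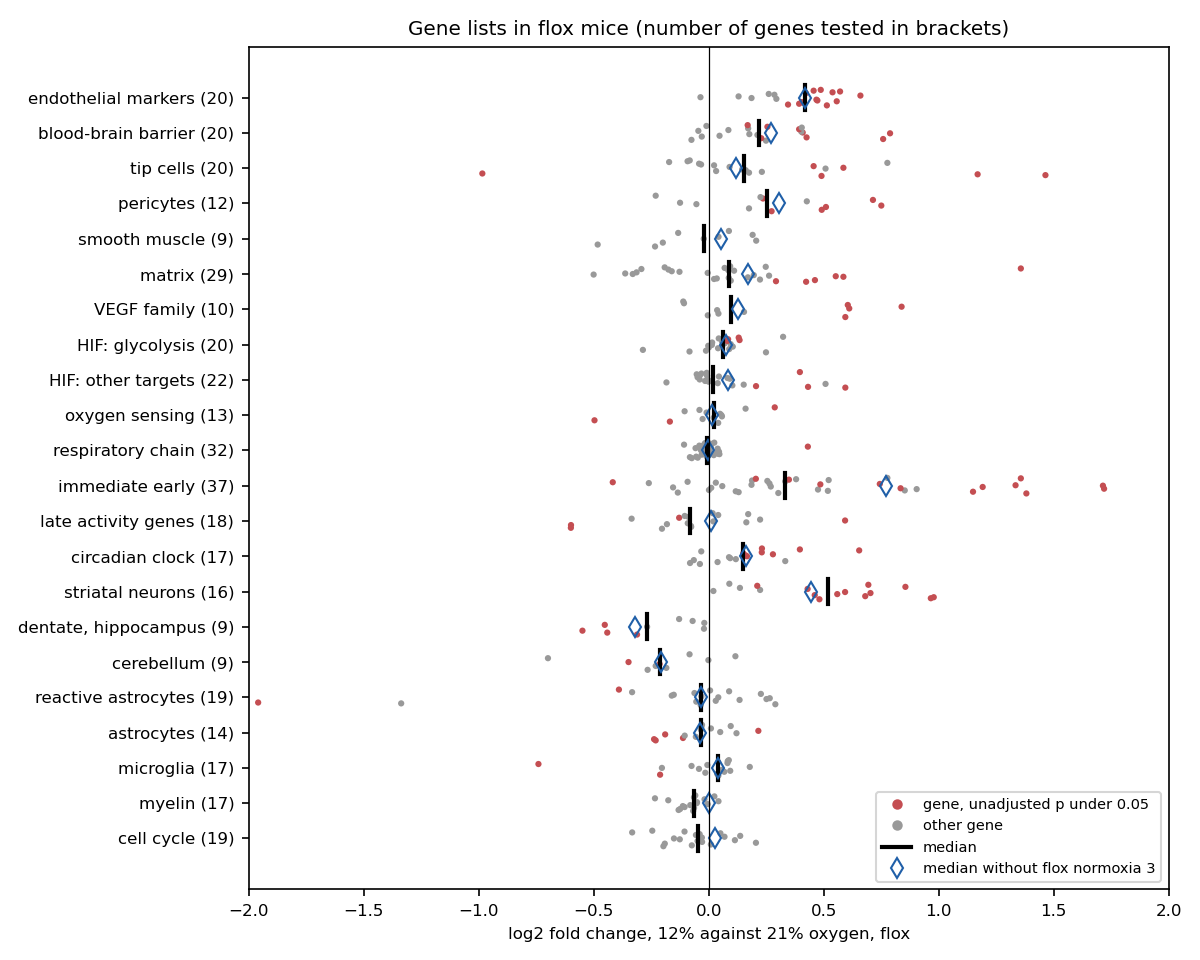
Log2 fold change of each gene tested in 22 lists, flox mice at 12% against 21% oxygen, with red points for an unadjusted p under 0.05. Black bars are list medians and blue diamonds the medians without flox normoxia 3. Endothelial markers (0.42) and striatal genes (0.52) lie right of 0 with or without that library, whereas the immediate early list moves from 0.33 to 0.77.

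None of the 13 genes of the oxygen-sensing machinery itself was called. Hif1a, the alpha subunit held under oxygen control mainly as a protein, had 70.8, 74.5 and 69.9 CPM in normoxia and 70.9, 74.0 and 76.5 CPM in hypoxia. The libraries overlapped, and the log2 fold change was 0.04 ± 0.06. Epas1, the HIF-2 alpha subunit prominent in endothelium, had 156, 181 and 154 CPM in normoxia and 143, 144 and 150 CPM in hypoxia. It lay lower in every hypoxia library but missed the threshold (-0.17 ± 0.07, edgeR adjusted p = 0.665). Hif3a, which can restrain the other subunits, stood at -0.50 ± 0.23. Egln3, an oxygen-sensing hydroxylase that is itself a HIF target, differed by 0.05 ± 0.12. Cited2, which competes with HIF for its co-activator, was the only 1 of the 13 genes of this list higher at an unadjusted p under 0.05 (0.29 ± 0.10). Epas1 and Hif3a were lower at that level, 2 of 13 (15.4%, against 2.95% of all genes).

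Classic HIF targets of metabolism showed small differences, and none was called. Of 20 glucose uptake and glycolysis genes 4 were higher at an unadjusted p under 0.05 (20%, against 3.7% of all genes) and none lower. The list median was 0.06, and 16 of the 20 were above 0. In 6 of them (30%, against 6.56% of all genes) every hypoxia library lay above every normoxia library. Pdk1, which keeps pyruvate out of the mitochondrion, had 69.7, 64.1 and 59.1 CPM in normoxia and 69.8, 69.3 and 72.0 CPM in hypoxia (0.13 ± 0.06). Slc2a1, the glucose transporter of the barrier, had 79.0, 77.7 and 108 CPM in normoxia and 107, 96.1 and 111 CPM in hypoxia. It overlapped because of flox normoxia 3, and its difference was 0.25 ± 0.15. Ldha, which makes lactate, stood at 0.04 ± 0.06, and the enolase Eno1 at 0.13 ± 0.05. In 6 of 22 other HIF targets tested (27.3%) the groups did not overlap, all of them higher. At an unadjusted p under 0.05, 4 were higher (18.2%) and none lower, and the median was 0.02. Besides Vegfa these were Bnip3, Ankrd37 (0.43 ± 0.15) and the transcriptional repressor Bhlhe40 (0.40 ± 0.12). Without flox normoxia 3, 7 of the 22 were higher at that level, Vegfa and Bhlhe40 (0.63) were called, and the median was 0.082. These values describe the remaining libraries and support nothing further. Bnip3 had 34.1, 33.4 and 34.9 CPM in normoxia and 40.05, 38.2 and 39.9 CPM in hypoxia, a small shift without overlap (0.21 ± 0.06). Epo, the red cell growth hormone made in hypoxia, had 2, 0 and 0 counts in normoxia and 2, 3 and 2 counts in hypoxia, too few to test. Of 32 nuclear genes of the respiratory chain, 1 was higher at an unadjusted p under 0.05 (3.12%, near the 3.7% of all genes) and none lower. The median was -0.01. The higher 1 was Cox4i2, a subunit isoform of complex IV (0.43 ± 0.20), which stood at -0.25 in KO mice. Without flox normoxia 3 none of the 32 was higher at that level.

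**Figure D3:**
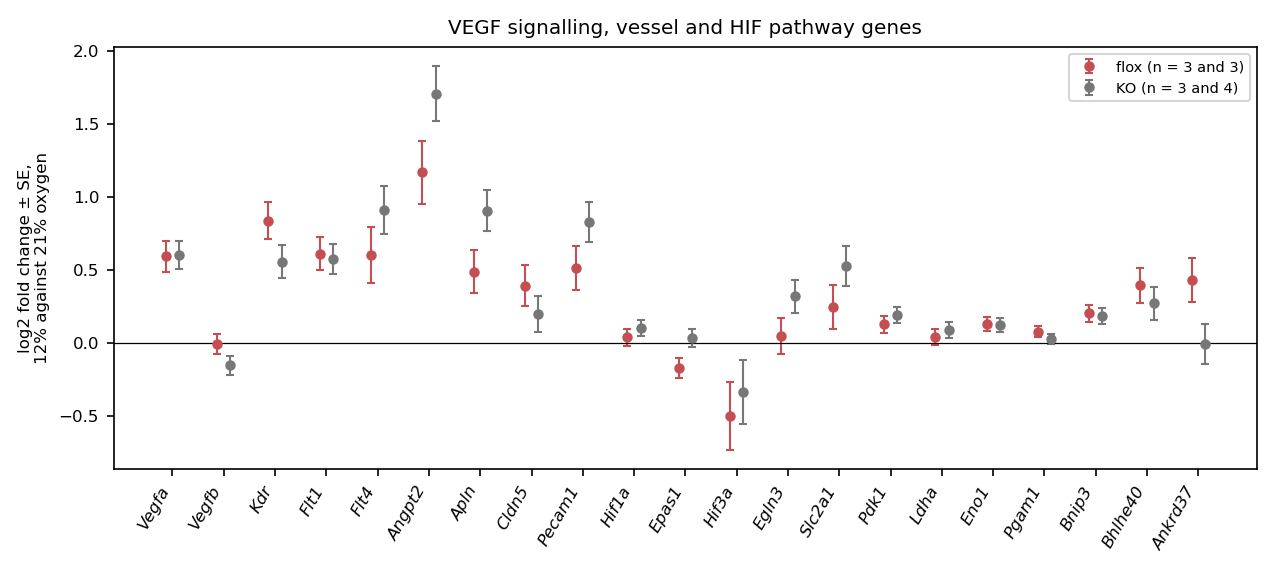
Log2 fold change of 12% against 21% oxygen with its SE for VEGF, vessel and HIF pathway genes, in flox mice (red) and in KO mice (grey). In flox mice Kdr, Vegfa and Flt1 lie between 0.59 and 0.84, whereas Hif1a, Egln3, Pdk1 and Ldha lie between 0.04 and 0.13.

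Btg2, an antiproliferative gene induced by stimuli in many cell types, had the largest change of the called genes with more than 10 CPM. It had 16.2, 16.0 and 38.1 CPM in normoxia and 78.02, 80.03 and 73.4 CPM in hypoxia, so even the high normoxia library lay below every hypoxia library (1.71 ± 0.25, edgeR adjusted p = 0.031). Of its 4 relatives tested, 3 were higher at an unadjusted p under 0.05, against 3.7% of all genes. These were Btg1 (0.20 ± 0.06), Tob1 (0.36 ± 0.12) and Tob2 (0.33 ± 0.14), and none was called.

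Btg2 is also an immediate early gene, a class transcribed within minutes of neuronal firing or other stimuli. Of 37 such genes, 12 were higher (32.4%, against 3.7% of all genes) and 1 lower (2.7%, against 2.95%) at an unadjusted p under 0.05. The median was 0.33. Fos had 20.1, 18.4 and 95.4 CPM in normoxia and 125, 114 and 112 CPM in hypoxia. Egr1 had 277, 264 and 712 CPM in normoxia and 618, 588 and 588 CPM in hypoxia. Arc, which controls receptor traffic at synapses, had 168, 142 and 598 CPM in normoxia and 602, 537 and 561 CPM in hypoxia. In all 3 genes flox normoxia 3 lay far above the other normoxia libraries, just below the hypoxia range for Fos, above it for Egr1 and within it for Arc. Dusp1, a phosphatase that ends MAP kinase signals, had 30.3, 28.2 and 73.2 CPM in normoxia and 109, 109 and 115 CPM in hypoxia (1.33 ± 0.25, edgeR adjusted p = 0.129). The list median moved with single libraries. It was 0.193 without flox normoxia 1 and 0.194 without flox normoxia 2, with 0 genes called in either case. Without flox normoxia 3 it was 0.77 and 15 of the genes were called, all higher, among them Dusp1, Fos, Junb and Arc. Since that library was singled out partly for its level of these genes, its removal had to widen the difference, and these values describe the other 5 libraries and support nothing further. The cause of the high levels in flox normoxia 3 was not tested.

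Of 18 later genes of neuronal activity, 1 was higher (5.56%, against 3.7% of all genes) and 3 lower (16.7%, against 2.95%) at an unadjusted p under 0.05. The median was -0.083. Without flox normoxia 3 there were 3 higher and 3 lower, and the median was 0.011. Nptx2, which clusters glutamate receptors, had 61.1, 54.6 and 78.7 CPM in normoxia and 46.0, 38.7 and 43.6 CPM in hypoxia, without overlap (-0.60 ± 0.13, edgeR adjusted p = 0.177). Inhba, an activin subunit, differed likewise by -0.60 ± 0.17.

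**Figure D4:**
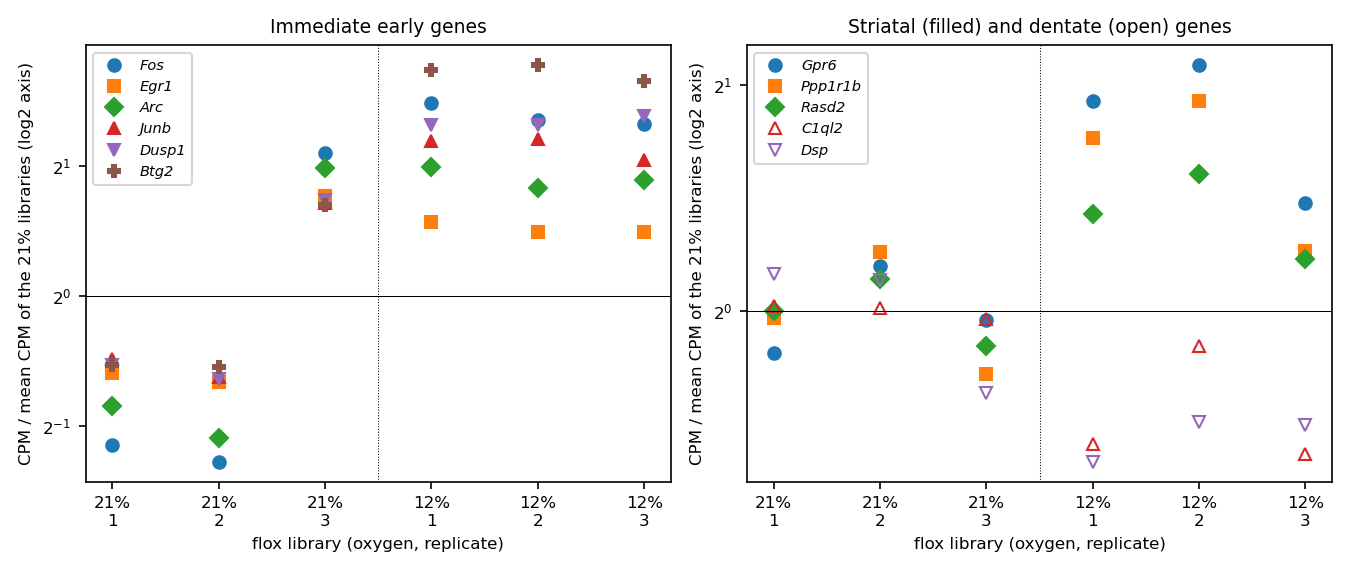
Level of single genes in each flox library, divided by the mean of the 3 normoxia libraries (log2 axis). Left, immediate early genes: normoxia library 3 lies above normoxia libraries 1 and 2 in every gene drawn, as with Egr1 at 712 against 277 and 264 CPM. Right, striatal genes (filled) and dentate genes (open): hypoxia library 3 has lower striatal levels than hypoxia libraries 1 and 2, as with Ppp1r1b at 102 against 144 and 161 CPM.

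Of 17 circadian clock genes, 8 were higher at an unadjusted p under 0.05 (47.1%, against 3.7% of all genes) and none lower. With all libraries edgeR called none of the 17, whereas DESeq2 called 4, all higher: Ciart, Dbp, Hlf and Tef. Without flox normoxia 3, edgeR called 3 of the 17, all higher, namely Ciart (0.88), Per1 (0.77) and Bhlhe40 (0.63), of which Per1 is also in the immediate early list. Dbp, an output gene of the clock, had 74.5, 81.0 and 72.3 CPM in normoxia and 85.2, 91.6 and 99.4 CPM in hypoxia (0.28 ± 0.05, edgeR adjusted p = 0.138). Its relative Hlf differed by 0.23 ± 0.05, and Ciart, a repressor within the clock, by 0.65 ± 0.15. The groups did not overlap in any of these 3 genes. Their hour of harvest is not given.

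Gh, which encodes growth hormone, had 0 counts in each normoxia library and 38, 37 and 46 counts in hypoxia. Against the floor of 3 counts over the normoxia group it was at least 51.35-fold higher (edgeR adjusted p = 0.031). Only the flox hypoxia libraries, where it is high, let it pass the filter. Its p-value is therefore not independent of that selection. Gh was not called with the replicate block, and the filter at 1 CPM in 3 libraries removed it. Prl, which encodes prolactin and was too scarce to be tested, had 0, 0 and 2 counts in normoxia and 19, 6 and 13 in hypoxia. Gh and Prl are made by the anterior pituitary, whose other hormone genes were at or near 0 in the same libraries: Cga and Lhb had 0 counts in all 6, and Fshb 2 counts in 1. The pituitary factor Pou1f1 had 0 counts in each hypoxia library. Pomc and Tshb, which are also transcribed in the brain, overlapped between groups. In KO mice Gh had 0 counts in normoxia and 4 counts over 4 libraries in hypoxia. Whether pituitary tissue was taken along with the brain was not tested.

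Hemoglobin transcripts, carried by red cells in the tissue, were higher in each hypoxia library. They made up 0.0136%, 0.0198% and 0.0255% of counts in normoxia and 0.0439%, 0.0470% and 0.0659% in hypoxia. Hba-a1 had 35.5, 44.8 and 57.2 CPM in normoxia and 150, 144 and 156 CPM in hypoxia, without overlap, yet did not pass (1.71 ± 0.49, edgeR adjusted p = 0.446). The other hemoglobin genes differed by 1.16 to 1.68. More red cells in the tissue and more of these transcripts per red cell cannot be told apart.

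Genes of brain regions also differed between the groups. Of 16 genes of striatal projection neurons, 12 were higher at an unadjusted p under 0.05 (75%, against 3.7% of all genes) and none lower. The median was 0.52. Ppp1r1b (DARPP-32), the dopamine signalling protein of these neurons, had 82.9, 102 and 69.9 CPM in normoxia and 144, 161 and 102 CPM in hypoxia (0.68 ± 0.15, edgeR adjusted p = 0.195). The orphan receptor Gpr6 differed by 0.85 ± 0.16. Both were called without flox hypoxia 3, at 0.85 and 1.01. That library had their lowest hypoxia level, so its removal had to widen the difference, and these calls support nothing further. The summed striatal level was 991, 1132 and 889 CPM in normoxia and 1353, 1455 and 1114 CPM in hypoxia, so flox hypoxia 3 lay below the highest normoxia library. In the same libraries 4 of 9 genes of the dentate gyrus and hippocampus were lower at an unadjusted p under 0.05 (44.4%, against 2.95%) and none higher. C1ql2, a secreted protein of dentate granule cells, had 22.6, 22.5 and 21.8 CPM in normoxia and 14.8, 20.02 and 14.4 CPM in hypoxia (-0.44 ± 0.10, edgeR adjusted p = 0.256). It was called at -0.61 without flox hypoxia 2, its highest hypoxia library, a removal that likewise had to widen the difference. Of 9 cerebellar genes 2 were lower at that level (22.2%, against 2.95% of all genes), and 1 without flox normoxia 3. Their summed level overlapped, at 565, 516 and 469 CPM in normoxia and 507, 535 and 585 CPM in hypoxia. The share of each region in the tissue and the level per cell cannot be told apart here.

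With all libraries edgeR called none of the falls taken by rule, and without flox normoxia 3 it called Fam205a4 (-0.71) and Il16 (-0.60). The falls described here were Fam205a4, Cyp2d22, Serpina3n, Il16, Nptx2, Tnnc1, Card10, Aff1 and Fam205a3, with log2 fold changes from -0.32 to -1.96. DESeq2 on all libraries called each of these except Nptx2. Serpina3n, a secreted protease inhibitor known as a marker of reactive astrocytes, had 76.7, 67.8 and 62.3 CPM in normoxia and 17.4, 17.1 and 18.7 CPM in hypoxia, the widest gap among them (-1.96 ± 0.38, edgeR adjusted p = 0.132). Gfap, the filament protein of reactive astrocytes, did not follow it (-0.04 ± 0.15), nor did Vim (0.29 ± 0.17). Of 19 genes of the reactive astrocyte list, 2 were lower at an unadjusted p under 0.05 (10.5%, against 2.95% of all genes). In KO mice Serpina3n was high in a single normoxia library, at 24.2, 20.9 and 75.5 CPM, and stood at 49.0, 22.6, 29.7 and 38.1 CPM in hypoxia. Its neighbour Serpina3m, named after its values were seen, had 121, 85 and 106 counts in flox normoxia and 0 in each flox hypoxia library, at least 81.68-fold lower. In KO it had 0, 0 and 107 counts in normoxia and 3, 0, 0 and 0 in hypoxia, so it was present in the normoxia library with high Serpina3n and at or near 0 in the other 6. Reads can be shared between these near-identical serpin copies, and their split is uncertain.

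Several of the other falls lie close together on 1 chromosome in RefSeq's gene order, which was looked at after the values were seen. From Card10 to Cyp2d22 lie 101 tested genes, a stretch whose bounds are falls of this list and were set after the values were seen. Of the 101, 20 (19.8%) had an unadjusted p under 0.05, 11 higher and 9 lower. The share was 6.82% among the 19586 genes with a place in that order. A stretch drawn around genes with a small p holds more of them by its choice, so its share describes the stretch and supports nothing further. Cyp2d22, a cytochrome P450, had 36.1, 41.2 and 34.4 CPM in normoxia and 22.9, 23.4 and 22.6 CPM in hypoxia (-0.70 ± 0.13, edgeR adjusted p = 0.129). Slc25a17, a peroxisomal carrier that was not chosen by rule, went the other way, with 18.7, 18.4 and 17.4 CPM in normoxia and 26.6, 25.0 and 23.5 CPM in hypoxia (0.46 ± 0.11). In both genes the 3 libraries of a group lay close together and the groups were well apart. The 4 KO hypoxia libraries, in contrast, lay at both levels. KO hypoxia 1 and 2, which hold Y-linked transcripts, had 26.6 and 22.4 CPM of Cyp2d22, while 3 and 4, which do not, had 34.1 and 35.9 CPM. For Slc25a17 they had 27.2 and 24.5 against 18.9 and 19.96 CPM, and KO normoxia had 18.5 to 20.8 CPM. Of the 11 genes of this stretch with an unadjusted p under 0.01 in flox, 10 had KO hypoxia 1 and 2 on the flox hypoxia side of 3 and 4, against 16.9% of the 361 such genes overall. Tef of the circadian list is 1 of those 10, and Tob2 lies in the stretch as well. A second stretch, with the near-identical Fam205a and Ccl21 copies, had bounds set in the same way. In it 14 of 24 tested genes were lower and none higher at an unadjusted p under 0.05. In several of these flox normoxia 3 stood near the hypoxia level. Gm5859 had 3.99, 4.48 and 0.838 CPM in normoxia and 0.637, 0.772 and 0.478 CPM in hypoxia. Among KO libraries it was high in KO normoxia 3 alone (3.22 CPM). Fam205a4 did not split so, with 6.34, 6.48 and 6.08 CPM in normoxia and 3.72, 3.94 and 4.13 CPM in hypoxia. Whether animals of the 2 groups differed in these stretches of the genome was not tested.

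**Figure D5:**
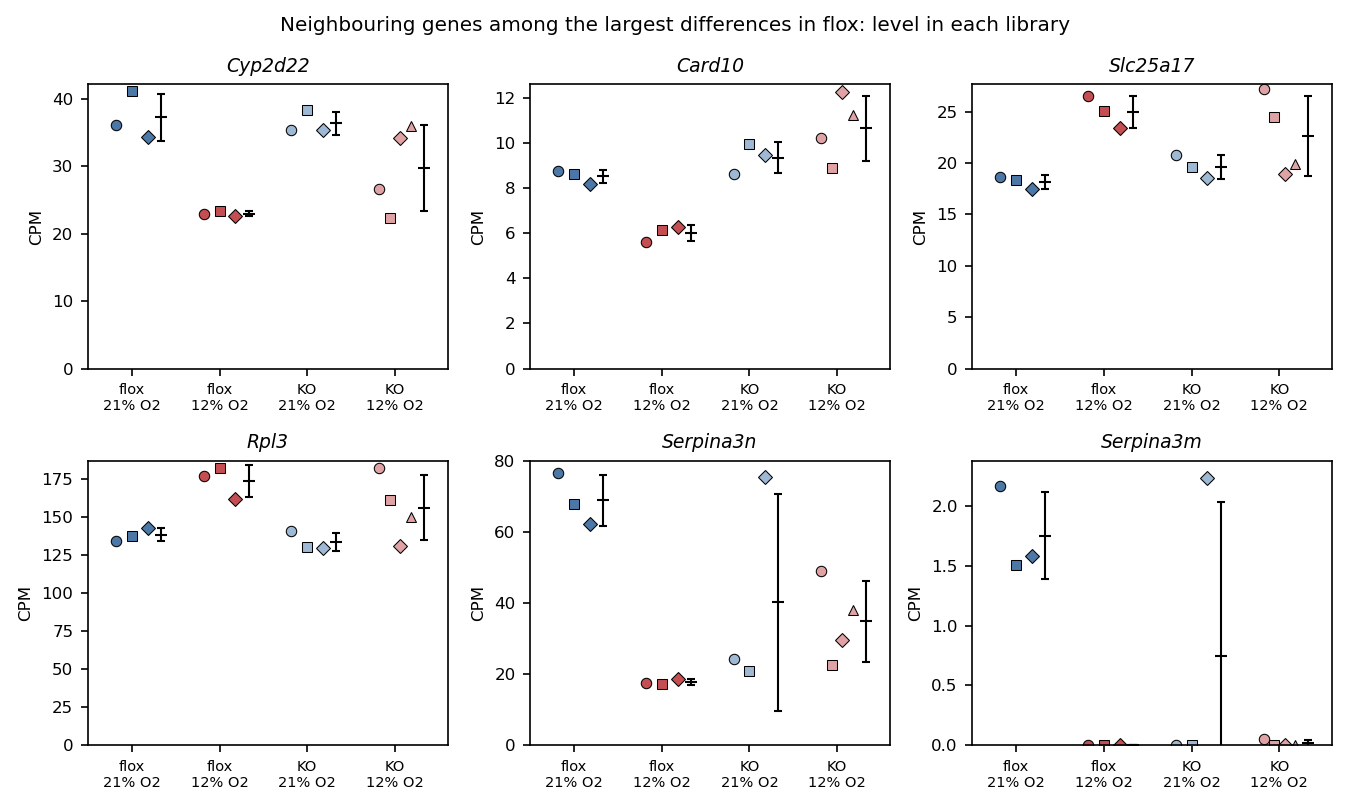
Level of 4 genes of the stretch from Card10 to Cyp2d22, and of the neighbours Serpina3n and Serpina3m, in each of the 13 libraries (CPM, linear axes from 0; symbols and bars as in the plot of called genes). Cyp2d22 separates KO hypoxia 1 and 2 (26.6 and 22.4 CPM) from 3 and 4 (34.1 and 35.9 CPM), and Serpina3m is present in the 3 flox normoxia libraries and KO normoxia 3.

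With all libraries edgeR called no gene of the glial, interferon, proliferation and myelin lists. DESeq2 called 1, Serpina3n of the reactive astrocyte list. Microglia markers had a median of 0.04 over 17 genes, with 2 lower at an unadjusted p under 0.05 (11.8%, against 2.95% of all genes). Aif1 (Iba1), a microglial actin-binding protein, was 1 of these, with 3.41, 5.31 and 4.999 CPM in normoxia and 2.66, 3.09 and 2.46 CPM in hypoxia (-0.74 ± 0.20, edgeR adjusted p = 0.393). Of 14 astrocyte markers 4 were lower (28.6%) and 1 higher (7.14%, against 3.7% of all genes) at that level. Among the lower was Gja1, the gap junction protein of astrocytes (-0.19 ± 0.05). None of 21 interferon response genes, 19 proliferation genes and 17 myelin genes reached it.

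The same oxygen contrast in KO mice shares no library with the flox contrast. There 202 genes passed (0.897%), 140 higher and 62 lower. Kdr, Cxcl12, Btg2 and Vil1 were among them, at 0.56, 0.42, 1.39 and 0.84, and Gh was not. Vegfa, with a log2 fold change of 0.60 in KO against 0.59 in flox, was called in KO (edgeR adjusted p = 0.015). Of the 140 genes that rose in KO, 123 had a positive log2 fold change in flox, and of the 62 that fell 54 had a negative one. Over all genes tested, 54.4% had the same sign in both genotypes, and 11118 of 22507 were above 0 in flox. Across all genes the correlation of the effects was low (Pearson 0.199, Spearman 0.120, over 22507 genes that are not independent). No gene had an interaction that passed edgeR's adjusted threshold (0%), and 1635 (7.26%) had an unadjusted p under 0.05. DESeq2 called 3 interactions. In the striatal list 7 of 16 genes had an interaction p under 0.05 before adjustment, with list medians of 0.52 in flox and 0.11 in KO. The endothelial list had 1 of 20, with medians of 0.42 and 0.57. Pdcd10 itself overlapped between oxygen levels in flox mice, at 16.2 to 17.8 CPM in normoxia and 17.2 to 17.6 CPM in hypoxia.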

How the data were processed

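Libraries of brain messenger RNA were made with a stranded kit from 50 ng per sample (RNA integrity number above 8.0), per the labels' protocols. The authors deposited counts per gene and, for the same 55416 Ensembl identifiers, RPKM values, which equal the counts divided by library total and gene length to within 9.9e-15. The submitters' processing notes name HISAT2, edgeR and GRCm39 with no version. The counter, annotation and strand setting were not given in the sources used here, and reads of overlapping genes on opposite strands cannot be told apart with certainty. The gene reference at hand was GRCm38 and served for names, gene order and promoter sequences. Of the identifiers, 52083 had a symbol, and the rest held 0.346% of counts.

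Groups were taken from sample titles. The labels name no animals, so p-values measure the spread between libraries. No batch is given. Pairs of libraries within a flox group differed by a chi-square of 4.44 to 16.9 per degree of freedom, so none repeated another. In the flox libraries a count of 0 allows up to 3 counts, or 0.0444 to 0.0713 CPM, which covers counting error only.

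Counts were filtered with filterByExpr (22507 genes, at least 99.95% of each library's counts), scaled by TMM and fitted to all 13 libraries with 1 mean per group in edgeR 4.0.16 under R 4.3.3 (quasi-likelihood test). The threshold was a Benjamini-Hochberg adjusted p of 0.05. The SE was taken from the F statistic. The fit was tested on simulated data. Genes named were those past the threshold, the 10 rises and 10 falls with the smallest p (mean of at least 2 log2 CPM, no overlap of libraries, no predicted, unnamed or sex-linked genes), up to 4 genes by p and 2 by level in each of 54 lists, and 25 genes of interest, of which those that add a result are given. Some genes taken by this rule are not reported here. The members and lists were chosen with earlier results of these data known. Lists are described by counts and medians beside those of all genes. Alternatives were DESeq2 1.42.0, limma 3.58.1 on log2 of RPKM plus 1 or plus 0.1, RLE or library totals as scaling, a filter at 1 CPM in 3 libraries or none, replicate number as a block, fits to the libraries compared or to those with Y-linked transcripts, and leaving out each library.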

Additional observations from a re-analysis of the deposited data

Results flagged for a closer look

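Levels in the 4 KO hypoxia libraries were examined for a library far from the other 3 in 24 named genes, and 4 genes showed one. Chance alone gives about 1 in 20. KO hypoxia 1 was high for Hba-a1, an alpha globin (5305 CPM), for Slc2a1, the glucose transporter of the barrier (288 CPM), and low for Fos (41.8 CPM). KO hypoxia 3 was low for Pdcd10 (14.7 CPM). Groups of 3, such as both flox groups, are too small for this comparison.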

How the results depend on the processing

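The count of genes called in flox mice (5) was 5 with RLE scaling and without composition factor, 4 with at least 1 CPM in 3 libraries, 158 without filter (104 higher, 54 lower), 67 with DESeq2 (50 higher, 17 lower), 2 with limma on either RPKM scale, 19 in a fit of only the 6 libraries compared (13 higher, 6 lower), 66 with only Y-linked libraries (40 higher, 26 lower), and 0 to 45 when a library was left out. In KO (202) it was 833 without filter, 751 with DESeq2, 46 and 42 with limma, 30 with only the libraries compared, 94 with only Y-linked libraries, and 2 to 463 when a library was left out. Interactions (0) were 55 without filter, 3 with DESeq2, 2 with limma on either scale, 1 with the replicate block, 10 with only Y-linked libraries, and 0 to 1 when a library was left out. The causes were not tested.

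Replicate numbers did not pair the flox samples: deviations of same-numbered libraries correlated at -0.001, 0.003 and -0.011, and in KO at 0.011, 0.065 and 0.076. With the replicate block 5 genes were called in flox (4 higher, 1 lower), 3 of them among the main 5, and 174 in KO.

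Of 110 named genes followed over 16 settings, 4 changed sign, all near 0. When a library was left out, Vegfb ranged from -0.027 to 0.020 (0.008 without flox hypoxia 3), Ldha from -0.002 to 0.117, Gfap from -0.098 to 0.016 and Pdcd10 from -0.010 to 0.054. With only Y-linked libraries Gfap was 0.015 and Pdcd10 -0.012. With 3 libraries a group, differences within the spread of flox normoxia 3 were not detectable.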
